A study of Mus musculus with 6 samples.

Results

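Glycosylation enzymes, some of them for mucin-type sugar chains, were compared in mouse colon organoids with floxed genes of both atypical protein kinases C. Cultures that were given vehicle were set against parallel cultures that were given 4-hydroxytamoxifen. Members were taken by gene symbol alone, as the rows whose names begin with Galnt, C1galt1, Gcnt, B3gnt, B4galt, Fut, St3, St6, St8 or Chst followed by the number or acceptor name of an enzyme. The pattern itself uses no measured value. The pattern matched 78 of 25067 rows. Of these, 76 name enzymes, with the enzyme chaperone C1galt1c1 counted among them. The other 2 name RNAs transcribed opposite to an enzyme gene (Galnt6os and St8sia3os). The 76 enzymes were grouped by the step they are best known for: 17 in initiation, 8 in core formation, 13 in extension, 8 in fucosylation, 17 in sialylation and 13 in sulfation. An exception is Gcnt2, which branches N-acetyllactosamine chains and was counted under core formation with the other Gcnt genes.

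Bulk RNA was sequenced in 6 libraries of colon organoids from C57BL/6 mice 8 weeks old. All 6 carried floxed alleles of both atypical kinases (Prkci f/f and Prkcz f/f) and Villin-CreERT2, a tamoxifen-activated Cre recombinase driven by the Villin promoter, which is active in gut epithelium. They were treated for 3 days with ethanol as vehicle (3 libraries) or with 4-OH-tamoxifen (4-OHT, 3 libraries), in Advanced DMEM/F12 medium to which R-spondin 1, Noggin, EGF, WNT3A and B27 had been added. The samples hold no 4-OHT library without the floxed alleles or without Cre, so the effects of 4-OHT, of active Cre and of kinase loss cannot be told apart, and one label calls the vehicle libraries wild type although they carry the same alleles.

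Mucin-type O-glycans start when a polypeptide GalNAc-transferase (Galnt family) places N-acetylgalactosamine on a serine or threonine. Core enzymes then add galactose or N-acetylglucosamine to make the core structures, extension enzymes lengthen them with galactose and N-acetylglucosamine, and fucosyl-, sialyl- and sulfotransferases cap the ends. In the colon these chains make up much of the mass of the mucins. Classed by acceptor, 23 of the 76 enzymes were placed under mucin-type O-glycans and 4 under O-glycan sialic acid. The others were placed under N-acetyllactosamine chains, N-glycans, glycolipids, glycosaminoglycans and other acceptors.

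Promoter sequences are shown for 4 members that carry the contrasts described further on: Fut1, which had the largest fall among the tested enzymes, C1galt1, which makes the core 1 structure, and St6galnac6 with its neighbour St6galnac4, between which RefSeq lists no other protein-coding gene and of which the first rose while the second was not called. Sequences run 5′ to 3′ along the gene's strand, from 250 bases before to 50 bases after the start in RefSeq (GRCm38.p6), and capitals mark matches, on either strand, to the GC box (GGGCGG) or the CCAAT box (CCAAT).
Fut1 (chr7:45617356-45617655, plus strand): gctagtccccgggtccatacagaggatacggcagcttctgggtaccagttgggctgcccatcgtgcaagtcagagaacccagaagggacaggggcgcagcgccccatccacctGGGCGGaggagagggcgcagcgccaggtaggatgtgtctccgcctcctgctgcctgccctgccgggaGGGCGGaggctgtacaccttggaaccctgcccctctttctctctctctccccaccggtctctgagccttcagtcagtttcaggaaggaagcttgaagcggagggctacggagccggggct
C1galt1 (chr6:7844974-7845273, plus strand): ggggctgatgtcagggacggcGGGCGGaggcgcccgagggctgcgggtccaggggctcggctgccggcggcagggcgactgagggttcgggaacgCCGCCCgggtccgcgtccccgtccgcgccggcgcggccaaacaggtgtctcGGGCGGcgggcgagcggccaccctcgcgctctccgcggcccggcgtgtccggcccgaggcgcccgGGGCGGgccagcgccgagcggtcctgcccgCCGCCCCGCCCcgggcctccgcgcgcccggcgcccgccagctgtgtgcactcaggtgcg
St6galnac6 (chr2:32599459-32599758, plus strand): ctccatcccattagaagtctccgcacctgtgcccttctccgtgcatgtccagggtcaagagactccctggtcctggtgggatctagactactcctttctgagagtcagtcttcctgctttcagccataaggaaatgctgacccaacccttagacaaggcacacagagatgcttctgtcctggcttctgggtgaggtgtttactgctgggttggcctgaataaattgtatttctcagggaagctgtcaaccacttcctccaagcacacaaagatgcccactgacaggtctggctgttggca
St6galnac4 (chr2:32586828-32587127, plus strand): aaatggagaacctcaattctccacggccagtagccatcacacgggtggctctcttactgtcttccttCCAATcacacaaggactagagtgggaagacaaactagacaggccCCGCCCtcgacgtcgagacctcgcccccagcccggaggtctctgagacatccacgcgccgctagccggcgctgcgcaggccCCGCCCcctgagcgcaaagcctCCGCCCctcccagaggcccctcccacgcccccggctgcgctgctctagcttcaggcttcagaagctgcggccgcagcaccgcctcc
The GC box was found in the windows of Fut1, C1galt1 and St6galnac4 and not in that of St6galnac6, and the CCAAT box only in that of St6galnac4 among these 4. The promoter table held 57 of the 78 members. A GC box lay in 10 of the 14 promoters of enzymes that rose, in 5 of the 5 promoters of enzymes that fell and in 64.5% of all 10059 promoters. The CCAAT box lay in 4 of 14, 0 of 5 and 39.1%. Searched in the same way, with N standing for any base, TTTATNG (CDX) lay in 1, 0 and 7.06%, GGAATG (TEAD) in 2, 1 and 11.8%, TGANTCA (AP-1) in 0, 0 and 5.26%, and TGATGNAAT (ATF4 composite) in 0, 0 and 0.457%. These matches describe the letters of the windows and nothing more.

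The libraries held between 15804709 and 26957612 reads. Transcripts of the targeted genes fell to unequal extents. Prkcz fell 3.24-fold, from 912.5 ± 37.9 to 280.9 ± 13.6 normalized counts (SD, n = 3 each here and below), and Prkci 1.17-fold, from 3520 ± 86.9 to 3021 ± 132. Of 10 colon epithelium markers (such as Epcam and Vil1) 6 were higher and 2 lower. All 10 proliferation markers were lower, and of 7 tested stem cell markers 5 were lower and 1 higher. Of 12 goblet cell markers 8 were higher and 2 lower, and of 9 colonocyte markers 6 were higher and 1 lower. Higher calls were made for 5 of 8 enteroendocrine markers and lower calls for 0. Of all genes tested, 22.7% were higher and 21.0% lower. Some markers of other cells were higher in libraries 4-OHT 2 and 3 than in the other 4. Summed over 4 plasma cell genes, CPM (reads scaled to the same library total) were 0 in every vehicle library and 0.0519, 10.4 and 3.52 in 4-OHT 1, 2 and 3. Over 14 Paneth and ileal genes they were 59.8 to 71.8 in vehicle and 71.4, 112 and 114, over 6 smooth muscle genes 0.147 to 0.696 and 0.727, 3.22 and 8.18, and over 6 fibroblast genes, where 4-OHT 2 lay within the vehicle range, 0.297 to 1.08 and 0.415, 0.868 and 9.71. In sum these libraries were not higher over 6 leukocyte genes (9.43 to 11.8 in vehicle and 7.58, 8.93 and 8.46 with 4-OHT) or 4 endothelial genes (2.09 to 2.86 and 1.66, 2.35 and 2.61). Most reads in these sums were of Cd68, which was lower, and of Vwf, which was not called. Csf1r, another leukocyte gene, was called higher. It was at low counts, 13.06, 8.51 and 4.84 normalized counts in vehicle and 15.50, 17.62 and 29.60 in 4-OHT 1, 2 and 3. The part of these cell-type shifts in the enzyme results was not tested, and calls that were lost without libraries 4-OHT 2 and 3 are given with the value without them.

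Enzyme transcripts moved mostly upward in the 4-OHT libraries. Of the 76 enzymes, 51 had a mean normalized count of at least 10 over the 6 libraries and were tested. Of these, 20 were higher (39.2%, against 22.7% of all 13210 genes tested) and 6 were lower (11.8%, against 21.0% of all genes), with an adjusted p under 0.05 in the limma-trend fit over all genes. A call in either direction was made for 26 of the 51 (51.0%, against 43.6% of all genes). Of the 17 tested enzymes classed under mucin-type O-glycans 8 were called (47.1%), 6 of them higher (35.3%) and 2 lower (11.8%). The median log2 fold change was 0.17 over the 51 enzymes and -0.01 over all genes. Most shifts were small: 6 enzymes were called with a change of at least 0.5 on the log2 scale (Fut1, Gcnt2, St6galnac6, St3gal2, St6gal1 and Chst7), 11.8% of those tested beside 14.2% of all genes. Chst7 passed the filter only through its 4-OHT values, and without it 19 of 50 enzymes were higher (38.0%), 5 were past that limit (10%), and the median was 0.17. The values of the groups did not overlap for 29 of 51 enzymes (56.9%), against 52.1% of all genes. In bulk RNA, fewer cells of a type and less RNA per cell cannot be told apart. Without libraries 4-OHT 2 and 3, in a fit in which the lone 4-OHT library is assumed to vary like the vehicle libraries, 11 enzymes were higher and 5 lower. Those 16 were all among the 26.

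**Figure D1:**
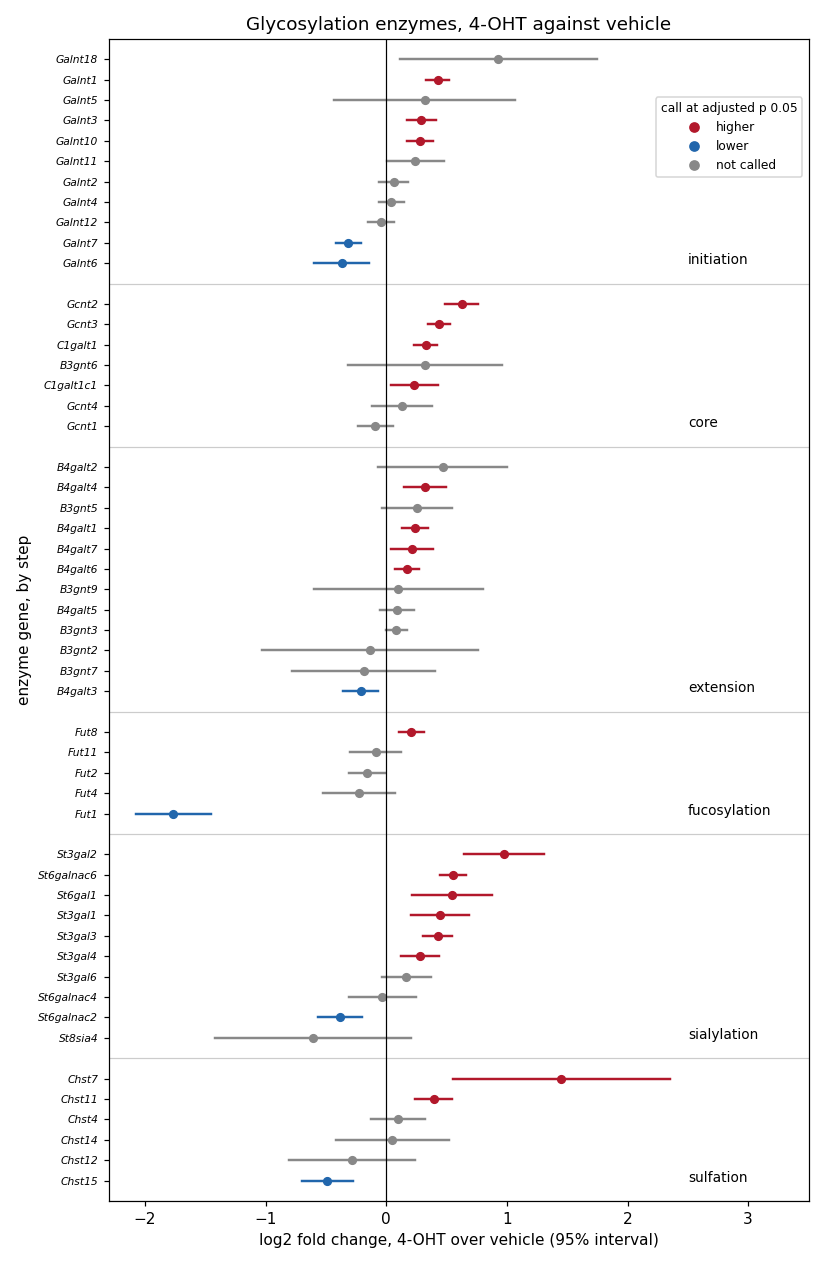
Log2 fold change of 4-OHT over vehicle (x axis) for the 51 tested enzymes (y axis), grouped by step. Points are the fitted values, lines their 95% intervals, and colours the call in the limma-trend fit: 20 enzymes lie to the right as higher, 6 to the left as lower, and Fut1 stands farthest to the left at -1.77.

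Initiation enzymes changed in both directions, at a share near that of all genes (45.5% called, against 43.6%). Of 17 Galnt genes 11 were tested, 3 rose (Galnt1, Galnt3 and Galnt10), 2 fell (Galnt6 and Galnt7), and 6 were not called, with a median of 0.24. Galnt3, the initiation enzyme with the highest count, had 3584, 3675 and 3200 normalized counts in the vehicle libraries and 3903, 4525 and 4369 in the 4-OHT libraries. Each 4-OHT library lay above each vehicle library, and the log2 fold change was 0.29 (SE 0.06, adjusted p = 0.00044). Without libraries 4-OHT 2 and 3 it was 0.17 (adjusted p = 0.13).

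Galnt1, a broadly acting family member, had 2665, 2721 and 2711 normalized counts in vehicle and 3687, 3574 and 3610 with 4-OHT. The replicates were tight and the groups well apart, with a log2 fold change of 0.42 (SE 0.04, adjusted p = 2.1e-07). Galnt7, which prefers peptides that already carry N-acetylgalactosamine, moved the other way. It had 2461, 2465 and 2343 normalized counts in vehicle and 1903, 2007 and 1939 with 4-OHT, a log2 fold change of -0.31 (SE 0.05, adjusted p = 3e-05). The ratio of Galnt7 to Galnt1 counts was 0.923, 0.906 and 0.864 in the vehicle libraries and 0.516, 0.561 and 0.537 in the 4-OHT libraries, so it was lower in each 4-OHT library than in any vehicle library.

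Galnt10, which also acts on glycosylated peptides, rose by 0.28 (SE 0.05, adjusted p = 0.00022). Galnt6 fell by 0.37 on the log2 scale (SE 0.11, adjusted p = 0.0097), but its 4-OHT libraries were uneven, at 320.8 ± 57.9 normalized counts against 409.9 ± 7.58 in vehicle, and without 4-OHT replicate 1 the change was -0.22 (adjusted p = 0.067). Without libraries 4-OHT 2 and 3 it was -0.68 (adjusted p = 0.0012). The exons of Galnt6 overlap those of Galnt6os over 11.4% of their length, and Galnt6os had at most 5 reads in a library.

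Galnt12, which is expressed mainly in the digestive tract, was even across the libraries, at 1993, 1927 and 1855 normalized counts in vehicle and 1843, 1931 and 1835 with 4-OHT. The groups overlapped, and the 95% interval of the log2 fold change, -0.15 to 0.06, held 0 (adjusted p = 0.54). Galnt18 had the largest rise among initiation enzymes that were not called, at 0.93 (adjusted p = 0.061) with 10.5 ± 2.76 and 21.3 ± 8.19 normalized counts. Galnt2 and Galnt4 were not called either, and part of their reads is uncertain: 88.0% of the 50-base windows of Galnt2 also occur in the readthrough gene model Gm20388, and 7.38% of those of Galnt4 in Poc1b, which fell by 0.18. The other members not called were Galnt5 and Galnt11.

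In TPM, which corrects for gene length and scales each library to the same total, the initiation step summed to 640.3 ± 25.3 in vehicle and 640.8 ± 7.8 with 4-OHT, with overlapping groups. Within that sum the make-up shifted. Galnt3 went from 21.8% ± 0.944 to 24.7% ± 1.29, Galnt1 from 13.4% ± 0.452 to 16.7% ± 0.675, and Galnt7 from 12.6% ± 0.0598 to 9.41% ± 0.0919, while Galnt12, with the highest TPM of the step in vehicle, went from 23.0% ± 0.515 to 20.7% ± 0.428.

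Core formation was the step in which no tested enzyme fell. Of 8 members 7 were tested and 4 rose (Gcnt2, Gcnt3, C1galt1 and C1galt1c1; 57.1%, against 22.7% of all genes), with a median log2 fold change of 0.32. The count of lower core enzymes was 0 in limma-trend, edgeR and DESeq2, also at an unadjusted p under 0.05. Gcnt3, the mucin-type core 2 and core 4 branching enzyme, had 3798, 3758 and 3732 normalized counts in vehicle and 5204, 5073 and 5005 with 4-OHT. The groups were far apart relative to the spread within each, and the log2 fold change was 0.44 (SE 0.04, adjusted p = 8.8e-08).

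C1galt1, which adds galactose to make core 1 and whose promoter is shown above, had 3814, 3882 and 3665 normalized counts in vehicle and 4557, 4824 and 4874 with 4-OHT. Each 4-OHT library lay above each vehicle library, with a log2 fold change of 0.33 (SE 0.05, adjusted p = 7.9e-06). Its chaperone C1galt1c1 (Cosmc), without which C1galt1 is not active, had 394.6, 380.2 and 458.8 normalized counts in vehicle and 448.4, 543.1 and 459.9 with 4-OHT. These groups overlapped, since vehicle replicate 3 lay above 4-OHT replicate 1. The call (0.23, SE 0.09, adjusted p = 0.049) was at the threshold and was lost without 4-OHT replicate 2 (0.15, adjusted p = 0.24), 4-OHT replicate 3 (0.27, adjusted p = 0.055), vehicle replicate 1 (0.21, adjusted p = 0.14) or vehicle replicate 2 (0.18, adjusted p = 0.20). With all 6 libraries the change was also not called in DESeq2 (0.24, adjusted p = 0.063). In limma-trend it was not called in CPM (adjusted p = 0.17), with TMM factors (0.052), no filter (0.053) or a pseudocount of 10 (0.051). It remained called in edgeR, after quantile normalization and with a minimum mean of 50, a pseudocount of 0.1 or the replicate block. Without both 4-OHT replicates 2 and 3 it was 0.13 (adjusted p = 0.49).

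Gcnt2, the I-branching enzyme of N-acetyllactosamine chains, had 732.4, 749.1 and 674.3 normalized counts in vehicle and 1052, 1158 and 1119 with 4-OHT. It had the largest rise of the step, at 0.63 (SE 0.06, adjusted p = 1.9e-07), which is 1.54-fold. Gcnt1, the widely expressed core 2 enzyme, behaved unlike Gcnt3. Its counts were 915.2, 878.2 and 794.2 in vehicle and 791.4, 867.6 and 768.4 with 4-OHT, the groups overlapped, and the interval of the log2 fold change was -0.24 to 0.06 (adjusted p = 0.31). The count ratio of Gcnt1 to Gcnt3 was accordingly 0.241, 0.234 and 0.213 in vehicle and 0.152, 0.171 and 0.154 with 4-OHT.

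B3gnt6, which makes the core 3 structure typical of colon mucin, was near the lower limit of the test in all 6 libraries, at 16.79, 22.70 and 19.37 normalized counts in vehicle and 21.70, 30.06 and 22.77 with 4-OHT. The groups overlapped and the interval, -0.32 to 0.96, leaves both directions possible (adjusted p = 0.42). Gcnt4 was not called (0.13, adjusted p = 0.40). The summed TPM of the step was 368.4, 364.8 and 356.3 in vehicle and 428.4, 430.2 and 428.3 with 4-OHT, a mean 18.1% higher. No test was made on sums over members. Gcnt3 and C1galt1 made up most of that sum in both groups, at 42.2% and 30.0% in vehicle and 44.9% and 29.5% with 4-OHT.

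**Figure D2:**
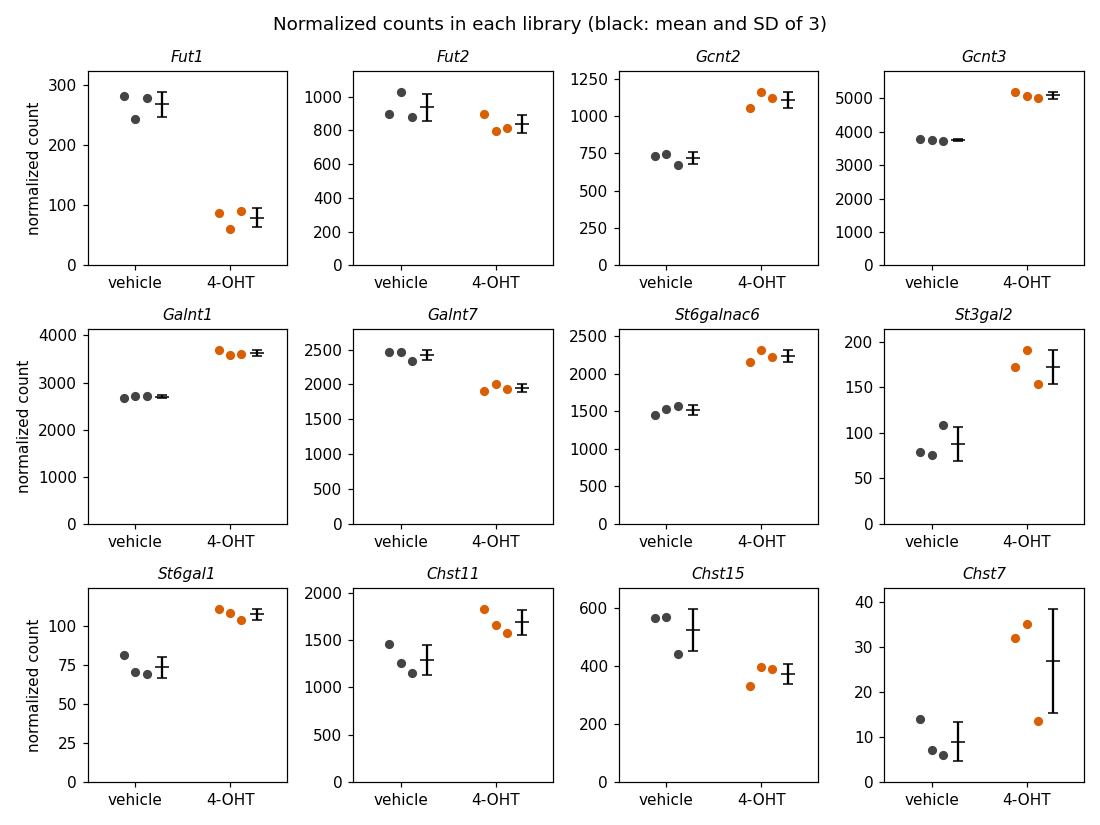
Normalized counts (y axis, from 0) of 12 enzymes in each vehicle and 4-OHT library (points, replicates 1 to 3 from left to right), with the mean and SD of 3 in black. Fut1 and Galnt7 are lower in all 4-OHT libraries, Gcnt2, Gcnt3, Galnt1, St6galnac6, St3gal2 and St6gal1 are higher in all of them, and in Fut2 and Chst7 the groups overlap.

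Extension enzymes were called at a share near that of all genes (41.7%, against 43.6%). Of 13 members 12 were tested, 4 rose (B4galt1, B4galt4, B4galt6 and B4galt7), 1 fell (B4galt3) and 7 were not called, with a median of 0.13. Without libraries 4-OHT 2 and 3 none of the 5 was called in limma-trend (0 extension enzymes after adjustment and 5 at an unadjusted p under 0.05). The log2 fold changes were then 0.19 for B4galt1, -0.21 for B4galt3, 0.27 for B4galt4, 0.16 for B4galt6 and 0.25 for B4galt7, with adjusted p between 0.066 and 0.14. B3gnt3, which extends core 1 with N-acetylglucosamine and had the highest count of all the enzymes, was at 6867, 6600 and 6805 in vehicle and 7087, 7229 and 7143 with 4-OHT. All 4-OHT values were above all vehicle values, yet the change was small and was not called (0.08, 95% interval 0.00 to 0.17, adjusted p = 0.12). After quantile normalization it was -0.01.

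B4galt6, a lactosylceramide synthase, had 3744, 3551 and 3487 normalized counts in vehicle and 4025, 3883 and 4237 with 4-OHT. It rose by 0.17 (SE 0.05, adjusted p = 0.0064), and without 4-OHT replicate 3 the change was 0.14 (adjusted p = 0.054). In limma-trend B4galt6 was also not called after quantile normalization (0.11, adjusted p = 0.062) or in CPM (0.098, adjusted p = 0.11). It was called in edgeR (adjusted p = 0.0084) and DESeq2 (adjusted p = 0.0041). B4galt1, the main galactosyltransferase of N-acetyllactosamine, had 2057, 2170 and 1943 normalized counts in vehicle and 2350, 2450 and 2462 with 4-OHT, with no overlap and a log2 fold change of 0.24 (SE 0.05, adjusted p = 0.00095). B4galt4 rose by 0.32 (SE 0.08, adjusted p = 0.0042), from 337.7 ± 14.3 to 421.8 ± 17.4.

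B4galt7, which builds the linker of glycosaminoglycans rather than mucin chains, was called at 0.21 (SE 0.08, adjusted p = 0.043). That call was lost without 4-OHT replicate 1 (0.19), 4-OHT replicate 2 (0.18), vehicle replicate 2 (0.23) or vehicle replicate 3 (0.16), with adjusted p between 0.073 and 0.16. With all 6 libraries it was lost in DESeq2 (adjusted p = 0.076) and, in limma-trend, with no filter (0.054) and in CPM (0.18). It was kept in edgeR, with TMM or quantile normalization, a minimum mean of 50, either pseudocount and the replicate block. B4galt3 fell by 0.21 on the log2 scale (SE 0.07, adjusted p = 0.017), and without vehicle replicate 1 or 2 the change was -0.19 (adjusted p = 0.077) or -0.18 (adjusted p = 0.099). Its exons lie opposite those of Ppox over 14.5% of their length, Ppox itself fell by 0.22, and whether counting used strand is not given in the sources used here. The 7 that were not called were B3gnt2, B3gnt3, B3gnt5, B3gnt7, B3gnt9, B4galt2 and B4galt5, among them all 5 tested B3gnt genes. The difference between these and the galactosyltransferases was not tested. For B3gnt2, 64.0% of the 50-base windows also occur in the gene model Gm28048. The summed TPM of the step was 689.5 ± 18.9 and 695.0 ± 13.2, with overlapping groups, and B3gnt3 made up 56.2% of it in vehicle and 54.7% with 4-OHT.

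Fucosylation held the largest single change. Of 8 members 5 were tested, 1 rose (Fut8), 1 fell (Fut1) and 3 were not called (40.0% called, against 43.6% of all genes), with a median of -0.16. Fut1, which makes the H antigen by adding terminal fucose to galactose, had 281.8, 244.7 and 279.7 normalized counts in vehicle and 86.78, 61.16 and 89.93 with 4-OHT. The highest 4-OHT value was well under the lowest vehicle value. The log2 fold change was -1.77 (SE 0.15, adjusted p = 1.4e-08), which is 3.40-fold lower, and it was -1.62 (adjusted p = 3.7e-05) without libraries 4-OHT 2 and 3.

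Fut2, the other H-antigen enzyme and the one that acts in secretory epithelium, had 896.6, 1029 and 880.1 normalized counts in vehicle and 897.8, 798.1 and 816.2 with 4-OHT. The groups overlapped and Fut2 was not called (-0.16, SE 0.07, adjusted p = 0.081). It did pass the threshold without 4-OHT replicate 1 (-0.21, adjusted p = 0.029) and when libraries were scaled to CPM (-0.23, adjusted p = 0.014). Fut1 counts were 0.314, 0.238 and 0.318 of those of Fut2 in vehicle and 0.0967, 0.0766 and 0.110 with 4-OHT, so this ratio was lower in each 4-OHT library than in any vehicle library.

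Fut8, which adds the core fucose of N-glycans, had 2021, 1925 and 1870 normalized counts in vehicle and 2301, 2204 and 2214 with 4-OHT, without overlap, and rose by 0.21 (SE 0.05, adjusted p = 0.0021). Fut11, a protein O-fucosyltransferase, had 370.4, 344.8 and 331.7 normalized counts in vehicle and 284.1, 337.9 and 367.7 with 4-OHT, and these overlapped. Its log2 fold change was -0.09 (adjusted p = 0.51) and turned to 0.02 without 4-OHT replicate 1. Fut4, a Lewis x enzyme, was at 134.4 ± 17.1 and 114.2 ± 3.45 and was not called (-0.23, adjusted p = 0.21).

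Fucosylation was the step whose summed TPM was lower, at 114.9, 111.7 and 105.3 in vehicle and 96.4, 88.16 and 94.89 with 4-OHT (-15.8%). The share of Fut1 in that sum went from 15.3% ± 1.37 to 4.95% ± 0.87 and the share of Fut8 from 38.9% ± 0.563 to 49.5% ± 1.01, while that of Fut2 was 27.3% ± 2.24 and 26.9% ± 1.24.

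**Figure D3:**
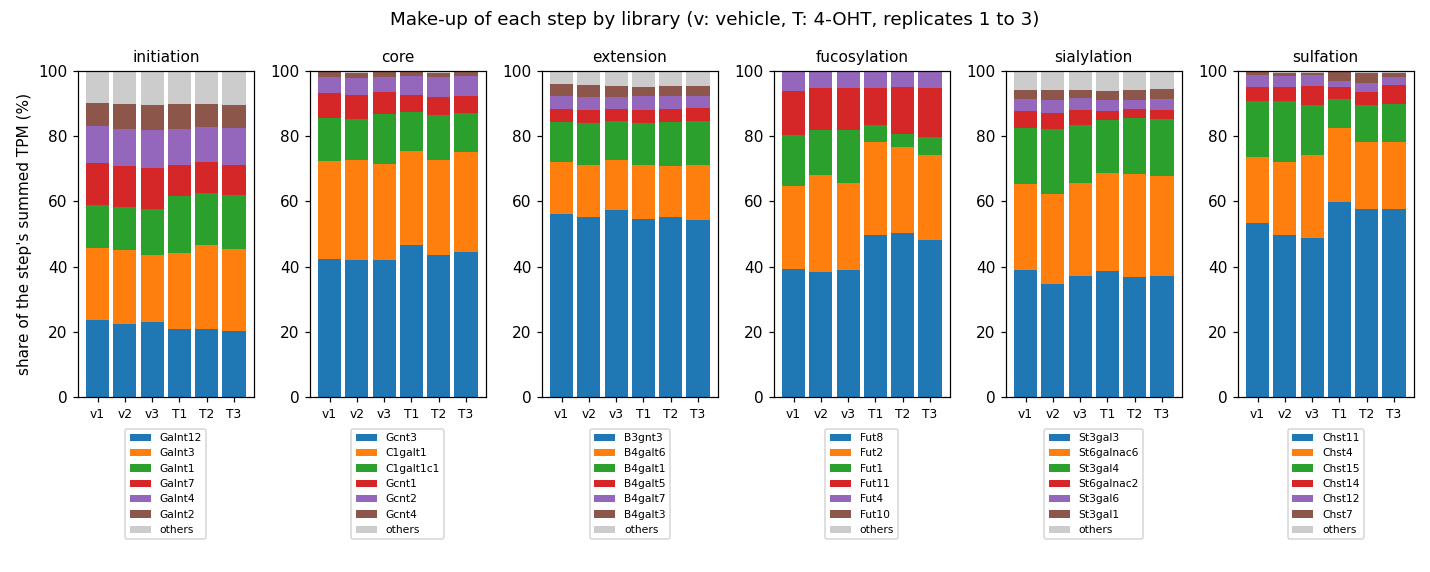
Share of each step's summed TPM (y axis, percent) taken by its 6 members with the highest share in vehicle and by the rest, in each vehicle (v1 to v3) and 4-OHT (T1 to T3) library. In fucosylation the band of Fut1 narrows from a mean of 15.3% to 4.95%, in initiation that of Galnt7 from 12.6% to 9.41%, and in sulfation that of Chst15 from 16.9% to 10.6%.

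Sialylation had the most calls, 7 of 10 tested enzymes out of 17 members: 6 rose (St6galnac6, St3gal1, St3gal2, St3gal3, St3gal4 and St6gal1), 1 fell (St6galnac2), and 3 were not called, with a median of 0.35. That is 70.0% called and 60.0% higher, against 43.6% and 22.7% of all genes. Without libraries 4-OHT 2 and 3, 4 of the 7 were called. St6galnac6, which sialylates gangliosides and Lewis-type chains, had 1449, 1535 and 1575 normalized counts in vehicle and 2157, 2314 and 2224 with 4-OHT. The groups were wide apart, with a log2 fold change of 0.55 (SE 0.05, adjusted p = 6.2e-08). Its neighbour St6galnac4 was at 189.7 ± 20.5 and 186.3 ± 29.9, with a log2 fold change of -0.03 (95% interval -0.31 to 0.24). The count ratio of the neighbours was 7.43, 7.41 and 9.43 in vehicle and 9.85, 12.9 and 13.9 with 4-OHT.

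St3gal3, which caps N-acetyllactosamine, had 1240, 1105 and 1173 normalized counts in vehicle and 1609, 1553 and 1562 with 4-OHT, without overlap, and rose by 0.43 (SE 0.06, adjusted p = 4.5e-06). St3gal4, which has the same kind of acceptor, lies opposite 4930581F22Rik over 14.1% of its exon length. That RNA was at 111.8 and 106.4 normalized counts on average and was not called. St3gal4 had 571.0, 676.0 and 592.0 normalized counts in vehicle and 703.6, 750.5 and 777.5 with 4-OHT. Its groups did not overlap either, and it rose by 0.28 (SE 0.08, adjusted p = 0.0048), or 0.20 (adjusted p = 0.19) without libraries 4-OHT 2 and 3.

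St3gal2, which acts on gangliosides and on core 1, had the largest rise of the step, from a low level. It had 79.30, 75.19 and 109.0 normalized counts in vehicle and 172.5, 190.7 and 153.7 with 4-OHT, each 4-OHT library above each vehicle library, and rose 1.97-fold (0.98 on the log2 scale, SE 0.16, adjusted p = 4.5e-05). St6gal1, which places sialic acid on N-glycan antennae, had 81.17, 70.23 and 69.01 normalized counts in vehicle and 110.5, 107.8 and 103.6 with 4-OHT. It rose 1.46-fold (0.54, SE 0.16, adjusted p = 0.0086), and without libraries 4-OHT 2 and 3 the change was 0.59 (adjusted p = 0.078). St3gal1, which sialylates core 1, rose by 0.45 (SE 0.11, adjusted p = 0.0037), or 0.30 (adjusted p = 0.22) without those libraries.

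St6galnac2, an O-glycan sialyltransferase, was the member of the step that fell, by 0.38 on the log2 scale (SE 0.09, adjusted p = 0.0015), from 391.0 ± 26.4 to 299.0 ± 4.43. For a grouping by acceptor each enzyme was placed under 1 acceptor only, St3gal2 under glycolipids although it also acts on core 1. In this grouping, 3 of 4 tested enzymes of N-glycan or N-acetyllactosamine sialic acid rose (75.0%, against 22.7% of all genes) and none fell. Both tested sialyltransferases of glycolipids, St6galnac6 and St3gal2, rose. Over all steps, 3 of 5 tested enzymes of glycolipids rose (60.0%, against 22.7% of all genes) and 2 were not called. Of 3 tested enzymes of O-glycan sialic acid, without St3gal2, 1 rose and 1 fell. St6galnac1, the goblet cell enzyme that makes sialyl-Tn, was hardly read: it had 0, 4 and 0 reads in the vehicle libraries and 0 in every 4-OHT library, and a count of 0 allows up to 3 reads. Part of its reads is also uncertain, since 34.9% of its 50-base windows also occur in the gene model Gm11735. St3gal6 (0.17, adjusted p = 0.18) and St8sia4 (-0.61, adjusted p = 0.22, at 13.3 normalized counts on average) were not called. The summed TPM of the step was 202.6, 202.4 and 197.7 in vehicle and 247.0, 241.7 and 248.0 with 4-OHT, a mean 22.2% higher. Most of it came from St3gal3 and St6galnac6, which held 36.9% and 27.5% of the sum in vehicle and 37.6% and 30.7% with 4-OHT.

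Sulfation enzymes were called at a share near that of all genes (50%, against 43.6%, and 40.0% without Chst7). Of 13 members 6 were tested, 5 of them enzymes of glycosaminoglycans, 2 rose (Chst11 and Chst7), 1 fell (Chst15), and 3 were not called (Chst4, Chst12 and Chst14), with a median of 0.07. Chst11, a chondroitin sulfotransferase, had 1456, 1255 and 1153 normalized counts in vehicle and 1831, 1657 and 1572 with 4-OHT. The groups did not overlap and the log2 fold change was 0.39 (SE 0.07, adjusted p = 0.00022). Chst15, which adds a further sulfate to chondroitin, had 565.4, 566.1 and 440.7 normalized counts in vehicle and 330.6, 396.0 and 388.2 with 4-OHT, and fell by 0.49 on the log2 scale (SE 0.10, adjusted p = 0.00053). Its exons overlap the opposite-strand Gm10584 over 17.9% of their length, and Gm10584 was at 1.34 and 1.76 normalized counts on average. The count ratio of Chst15 to Chst11 was 0.388, 0.451 and 0.382 in vehicle and 0.181, 0.239 and 0.247 with 4-OHT.

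Chst7, which sulfates chondroitin and N-acetylglucosamine, was read at a low level. It had 13.99, 7.09 and 6.05 normalized counts in vehicle and 32.03, 35.24 and 13.66 with 4-OHT, so that 4-OHT replicate 3 lay below vehicle replicate 1. The fold (2.74, or 1.45 on the log2 scale, SE 0.43, adjusted p = 0.0095) comes from a gene that passed the limit of 10 only through its 4-OHT values, and without 4-OHT replicate 2 it was 1.21 (adjusted p = 0.065). Chst4, which sulfates N-acetylglucosamine of mucin-like chains, had 227.6, 234.1 and 247.0 normalized counts in vehicle and 285.1, 243.6 and 231.1 with 4-OHT. These overlapped, and the interval was -0.13 to 0.32 (adjusted p = 0.51). Chst5, the related enzyme of the intestine, had 1 read in 4-OHT replicate 3 and 0 in the other 5 libraries. The summed TPM of the step was 80.43 ± 6.63 and 84.87 ± 5.6, with overlapping groups.

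**Figure D4:**
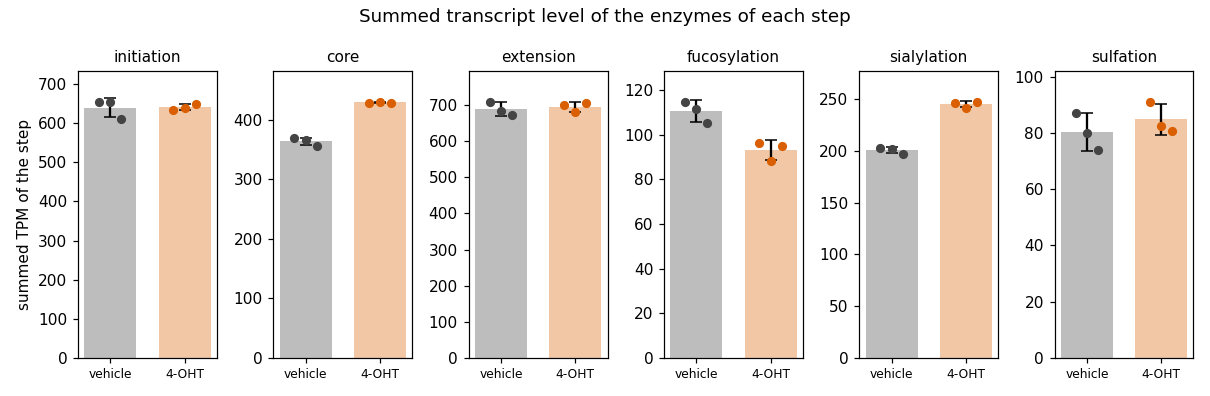
Summed TPM (y axis, from 0, a separate scale for each step) of the enzymes of each step in the vehicle and 4-OHT libraries, with bars for the mean, lines for the SD of 3 and points for the libraries. Core formation and sialylation lie higher in all 4-OHT libraries (18.1% and 22.2%), fucosylation lies lower in all of them (-15.8%), and the groups overlap in initiation, extension and sulfation.

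The size of the step sums' differences depended on the scale. On the authors' size factors, again divided by gene length, initiation was 7.97% higher with 4-OHT, extension 8.70% and sulfation 13.8%, with all 4-OHT libraries above all vehicle libraries, where the TPM means were 0.0927%, 0.803% and 5.52% higher and the groups overlapped. Core formation (27.4%), sialylation (31.8%) and fucosylation (-9.23%) kept their direction on both scales. Scaled to CPM, the median of all genes was -0.08 and 2218 genes were higher and 3789 lower, against 2997 and 2768 on the authors' scale. On that scale 17 enzymes were higher and 7 lower.

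The 25 enzymes that were not tested had between 0 and 20 reads in any library. They were Galnt9, Galnt13, Galnt14, Galnt15, Galnt16 and Galnt17 in initiation, Gcnt7 in core formation, B3gnt8 in extension, Fut7, Fut9 and Fut10 in fucosylation, St3gal5, St6galnac1, St6galnac5, St8sia1, St8sia3, St8sia5 and St8sia6 in sialylation, and Chst1, Chst2, Chst3, Chst5, Chst8, Chst10 and Chst13 in sulfation. Galnt13, Galnt17 and Chst10 had no read in any library. At this depth 3 reads correspond to between 2.13 and 3.63 normalized counts, so a count of 0 leaves levels up to these possible. Galnt6os and St8sia3os had at most 5 and 3 reads.

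Genes that supply or complement the enzymes changed in both directions. A list of 74 other glycosylation genes held 59 tested genes, of which 13 rose (22.0%) and 14 fell (23.7%), with a median log2 fold change of 0.03, close to the shares of all genes. The largest rise was that of Abo, the blood group A and B transferase, which acts on the H antigen. It had 139.0, 168.1 and 178.0 normalized counts in vehicle and 366.8, 352.4 and 356.3 with 4-OHT, all well above vehicle, a log2 fold change of 1.15 (SE 0.11, adjusted p = 6.7e-08). The largest fall was that of Galk1, galactokinase, at 995.5, 1017 and 975.8 in vehicle and 574.4, 647.8 and 572.6 with 4-OHT, a log2 fold change of -0.74 (SE 0.07, adjusted p = 3.8e-08).

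The counts by list stand beside 43.6% of all genes called, 22.7% higher and 21.0% lower. Of 4 tested enzymes that cap with N-acetylgalactosamine 3 fell (75.0%) and none rose. Of 7 tested N-glycan branching enzymes 4 were called (57.1%), 3 of them higher. Of 11 tested genes of UDP-sugar supply 3 rose and 2 fell, of 4 of GDP-fucose supply 2 rose and none fell, of 3 of sialic acid supply 1 rose and 1 fell, and of 3 of sulfate supply 1 fell. Among 8 tested core and elongation genes outside the symbol pattern 1 rose and 3 fell, and among 4 that add O-fucose or modify sialic acid 2 rose and 1 fell. The only tested initiation gene outside the pattern, Galntl6, fell and the only tested galactose sulfotransferase, Gal3st1, rose. Of 13 tested Golgi transporters of sugars and sulfate 1 fell and none rose in limma-trend, edgeR or DESeq2, with 1 higher at an unadjusted p under 0.05 in limma-trend and edgeR and 0 in DESeq2. The other counts of none in this paragraph were also 0 in edgeR and DESeq2 and at an unadjusted p.

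Of 6 tested mucin backbone genes, which encode the proteins that carry these chains, 1 rose and 2 fell. Muc2, the secreted mucin of goblet cells, had 2351, 3181 and 2317 normalized counts in vehicle and 2201, 2213 and 2540 with 4-OHT. The groups overlapped, vehicle replicate 2 was the highest, and Muc2 was not called (-0.16, SE 0.09, adjusted p = 0.14).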

How the data were processed

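RNA-seq of 6 mouse colon organoid libraries (3 vehicle, 3 4-OHT) was analysed. The deposited table holds a normalized count per gene, a signal the authors made by dividing reads by 1 size factor per library. The submitters' processing notes name STAR, DESeq2 and GRCm39 (mm39), with no versions. In each library 100% of values were whole multiples of 1 read within 0.1 reads, giving 15804709 to 26957612 recovered reads, and 1754 rows were 0 throughout.

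Rows averaging at least 10 normalized counts over the 6 libraries (13210) were compared with limma-trend (limma 3.58.1, R 4.3.3) on log2(normalized count + 1), which understates changes of low genes, with Benjamini-Hochberg adjustment over all rows, a threshold of 0.05 and no covariate. Alternatives were edgeR 4.0.16 and DESeq2 1.42.0 on recovered reads, TMM and quantile normalization, pseudocounts of 0.1 and 10, no filter, a minimum mean of 50, the replicate block, each library left out, 4-OHT replicates 2 and 3 left out and, chosen after the data were seen, CPM. Fits of 1 against 3 libraries take their spread from the vehicle libraries.

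Lengths for TPM came from GENCODE vM21 (GRCm38), matched to rows holding 98.6% of reads. That build differs from the authors', so coordinates are given only for the promoter windows, which are RefSeq's on GRCm38.p6. Every called enzyme is named. Values in every library are given for those with a change of at least 0.5 and for the 3 with the highest count in each step. They are also given for 13 enzymes listed by name, among them Fut8 and St6gal1, which act on N-glycans. That makes 28 in all. Members, steps and lists were chosen with earlier results of these data known. Enzymes named outside that rule were named after their values were seen. The labels do not say that replicates came from separate cultures or animals, so p-values measure only the spread between these samples. Replicates of a group differed by 3.35 to 6.04 times counting noise (chi-square per degree of freedom), and no library repeats another. Same-numbered libraries did not deviate together (correlations -0.0202 to 0.0303).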

Additional observations from a re-analysis of the deposited data

How the results depend on the processing

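Without 4-OHT replicates 2 and 3, the libraries with reads of other cell types, all genes gave 1858 higher and 1711 lower calls, 11 enzymes were higher, and 0 extension and 4 sialylation enzymes were called, in a fit that also rests on fewer libraries. In CPM, a scale added after the data were seen, 3 extension enzymes were called, and of all calls 2218 were higher and 3789 lower. With 1 library left out, extension calls ranged from 3 to 5, with 3 without vehicle replicate 2, and Fut11 ranged from -0.1694 to 0.016, positive without 4-OHT replicate 1. Quantile normalization turned B3gnt3 to -0.0126, and the cause of these changes was not tested. With the replicate block, 20 enzymes were higher and 6 lower and 5637 genes were called in all, the pairing being by number only. Between 23 and 27 enzymes were called in the other settings. Single-enzyme values were taken for 33 tested enzymes only: those called, the 3 with the highest count in each step and those listed by name. Of these 559 values 522 had the same sign and the same call, 33 lost the call, 2 gained it and 2 reversed. The losses fell on 12 enzymes, most often on C1galt1c1 and B4galt7. A minimum mean of 50 gives no value for B3gnt6 and Chst7. Low counts limit Chst7, B3gnt6, Galnt18 and St8sia4.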
